A study of Saccharomyces cerevisiae with 12 samples.

Results

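The response of wild-type Saccharomyces cerevisiae to rapamycin was described across 6 RNA-seq libraries, 3 from cultures with the drug and 3 from cultures without it. A feature was included when its FPKM (fragments per kilobase of transcript, scaled to the number of mapped reads of the library) averaged at least 1 over these 6 libraries, which held for 6488 of the 7126 features. Of the 638 features left out, 512 were listed at 0 in all 6 libraries. The feature just outside this limit was *YFL064C*, with a mean of 0.995 FPKM, and the feature just inside was *ERR3*, with a mean of 1.02 FPKM. WT with rapamycin was the strain BY4730, labelled wild type, grown in YPD, a rich medium, to log phase at 30 °C and then cultured with 100 nM rapamycin for 50 min (libraries 2, 4 and 6). WT without rapamycin was the same strain grown in the same way and not given the drug (libraries 1, 3 and 5). The repeats were made on 3 different days that the labels do not tie to libraries, so the p-values measure the spread between these libraries. The other 6 of the 12 libraries of the series, from a strain lacking *RRD1*, were used only in an alternative fit.

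Rapamycin is a macrolide that binds the small prolyl isomerase Fpr1, and the complex inhibits TORC1, the kinase complex that couples growth to nutrients. Active TORC1 promotes the synthesis of ribosomes and translation, and it restrains autophagy, the use of poor nitrogen sources and the general stress program. In yeast much of this control passes through transcription factors held inactive or in the cytoplasm, such as the GATA activators Gln3 and Gat1 and the stress activators Msn2 and Msn4, and through the protein kinase Sch9 and PP2A-type phosphatases.

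*LEU2*, *MET17* and *URA3*, the auxotrophic marker genes deleted in BY4730, were listed at 0 in all 6 libraries. The pheromone gene of MATa cells, *MFA2*, stood at 99259 to 154658 FPKM with rapamycin and 52183 to 65688 FPKM without it, while the alpha-pheromone gene *MF(ALPHA)1* stayed at 1.46 FPKM or below with rapamycin and at 1.87 FPKM or below without it. Other alpha-cell genes were not near 0, with *MF(ALPHA)2* at 46.2 to 59.8 FPKM with rapamycin and 29.7 to 44.8 FPKM without it, and *SAG1*, the alpha-agglutinin, at 45.9 to 80.3 FPKM with rapamycin and 13.5 to 26.2 FPKM without it. The meiotic gene *IME1* stood at 6.57 to 13.6 FPKM with rapamycin and 6.24 to 14.1 FPKM without it. *IME2* stood at 14.0 to 16.4 FPKM with rapamycin and 6.36 to 7.69 FPKM without it. *NDT80*, also meiotic, stood at 21.8 to 24.4 FPKM with rapamycin and 11.1 to 12.7 FPKM without it. *SPO11* had 9.97 to 11.9 FPKM with rapamycin and 5.41 to 5.75 FPKM without it, and *SPS1* had 1.11 to 1.48 and 2.27 to 3.38 FPKM. The steps in the FPKM of weakly expressed genes implied 9.05 to 11.47 M mapped reads (M, a unit of 1000000) per library with rapamycin and 8.44 to 10.99 M without it. Correlations of log2(FPKM + 1) between libraries were 0.94 to 0.96 within a group and 0.77 to 0.84 between groups, and the first principal component, with 74.7% of the variance, separated the treated from the untreated libraries.

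Rapamycin was accompanied by a higher level of genes for poor nitrogen sources, amino acid synthesis, autophagy and stress, and by a lower level of nearly every gene for the proteins and the assembly of cytosolic ribosomes and of most translation factors. With the FPKM as deposited, 2960 features (45.6% of those tested) passed an adjusted p of 0.01 in limma's test (Benjamini-Hochberg), of which 2049 were higher with rapamycin (31.6%) and 911 were lower (14.0%). The counts of gene lists given further on are to be read against these shares. Differences are given as log2 fold changes of FPKM + 1, with rapamycin minus without, and a feature is said to have risen or fallen only where it passed this test. The 3 libraries with rapamycin and the 3 without it did not overlap for any of these 2960 features, nor for 4431 (68.3%) of all those tested. Among the rises 1137 were at least 2-fold and 306 at least 4-fold, and among the falls 645 were at least 2-fold and 315 at least 4-fold. The falls were fewer and larger, with a median of -1.49, against 1.08 for the rises.

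**Figure D1:**
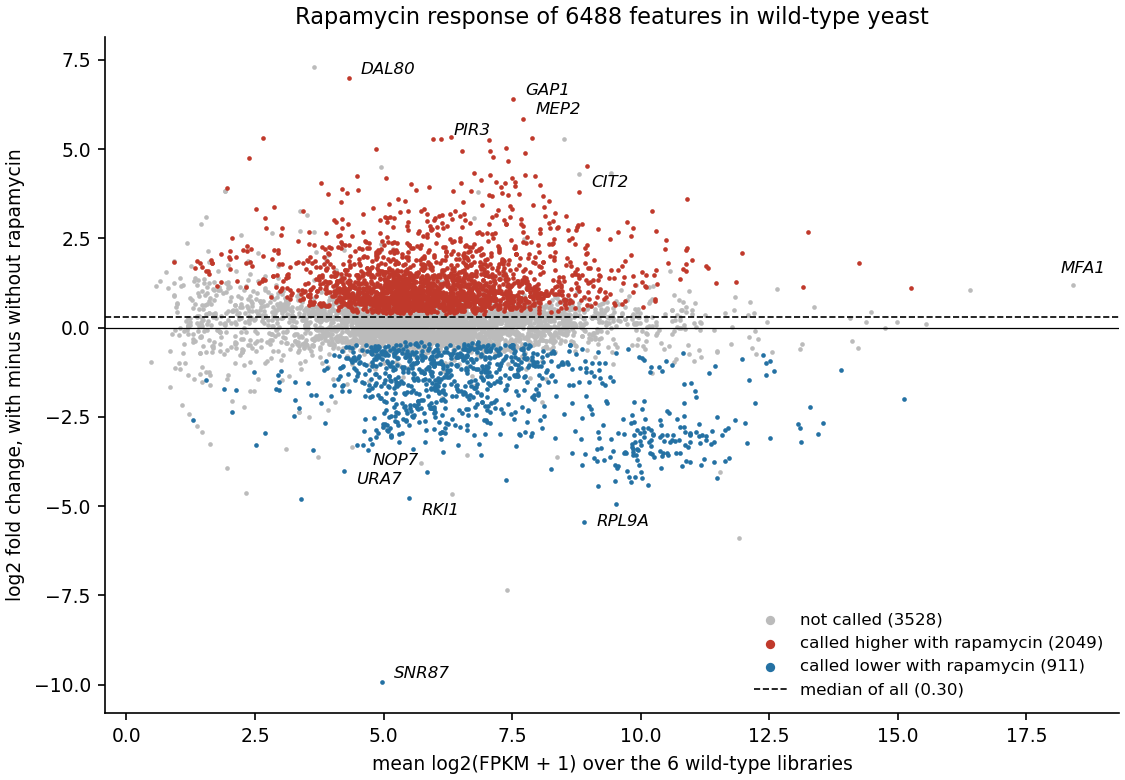
Log2 fold change of each of the 6488 features (vertical axis, WT with rapamycin minus WT without) against its mean log2(FPKM + 1) over the 6 libraries (horizontal axis). Red points rose, blue points fell, gray points were not called, and the dashed line is the median of all features, 0.30. The lowest blue point is the short *SNR87*, at 0 with rapamycin. Of the other falls labelled, *RPL9A* is at -5.45 and *RKI1* at -4.78, and *DAL80* at 6.98 is the largest rise that was called.

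The balance of rises and falls depended on how the libraries were scaled to each other. The median fold change of all features was 0.30 on the deposited scale and 0.01 after median-ratio scaling, a shift of -0.28 on the log2 scale. After that scaling 1384 features were higher (21.3%) and 1431 lower (22.1%), so the share of calls that were rises was 49.2%, against 69.2% as deposited. Across all 6 scalings tried, 1194 features were higher in every one (18.4%) and 806 were lower in every one (12.4%), and none of the 5 others called a feature in the direction opposite to its call on the deposited scale. FPKM are relative within a library and no external standard was named, so none of the scalings gives the amount of RNA per cell. In bulk cultures a smaller number of cells that express a gene and less of its RNA in each cell cannot be told apart.

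**Figure D2:**
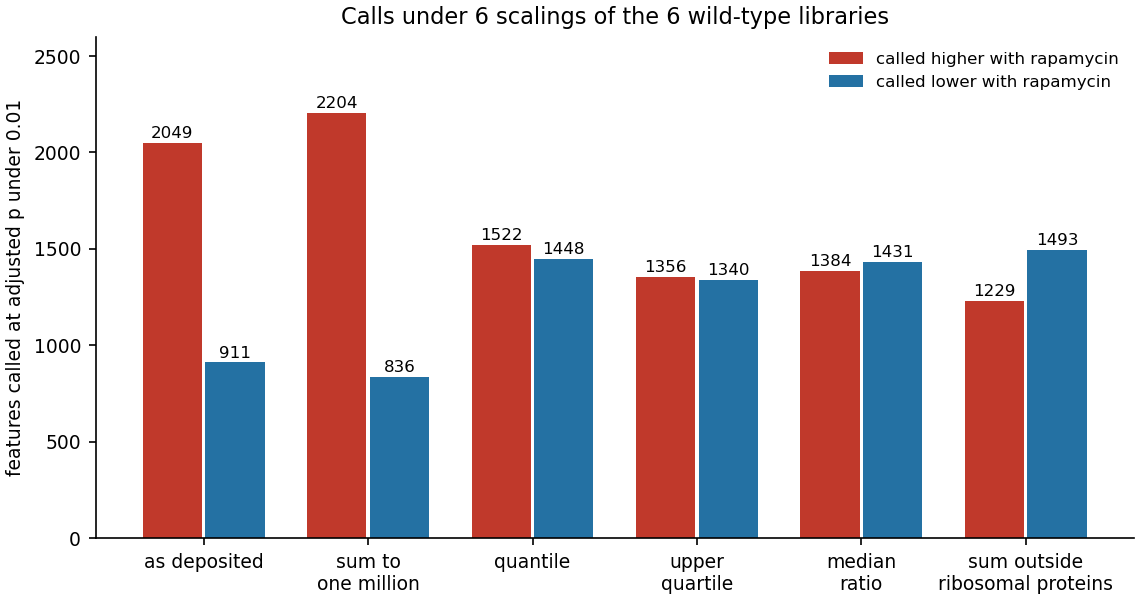
Number of features called at an adjusted p under 0.01 (vertical axis) under each of 6 scalings of the wild-type libraries, with rises in red and falls in blue. Rises outnumber falls 2049 to 911 as deposited and 2204 to 836 when each library is scaled to the same sum, while 1229 rises stand against 1493 falls when each is scaled by the sum outside ribosomal proteins.

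The largest rises were in genes for the use of poor nitrogen sources, which are repressed while good sources such as glutamine are at hand. *DAL80*, which encodes a GATA-type repressor of these genes (chrXI:506898-507707 of R64), had 254, 182 and 241 FPKM with rapamycin, against 0.581, 0.446 and 1.44 FPKM without it (log2 fold change 6.98 ± 0.23 SE, adjusted *p* = 2.76e-06). *GAP1*, the general amino acid permease, had 1788.5, 1594 and 1645 FPKM with rapamycin, against 17.4, 18.1 and 21.7 FPKM without it (6.39 ± 0.12). *MEP2*, the high-affinity ammonium permease, had 1653, 1406 and 1716 FPKM with rapamycin, against 23.8, 26.8 and 28.8 FPKM without it (5.86 ± 0.13). In each of these genes the lowest treated library was far above the highest untreated one. They were the 3 largest rises by the rule for named genes, and each kept its call under all 22 alternatives tried.

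The promoters of these 3 genes are shown because GATA factors bind the core GATAAG, which each of them holds. The stretches run from 250 to 101 bases before the coding start, read 5′ to 3′ on the coding strand from RefSeq R64, with GATAAG or its reverse complement in capitals. They lie at chrXI:506648-506797 for *DAL80*, chrXI:514813-514962 for *GAP1* and chrXIV:357203-357352 for *MEP2*, all on the plus strand.
DAL80: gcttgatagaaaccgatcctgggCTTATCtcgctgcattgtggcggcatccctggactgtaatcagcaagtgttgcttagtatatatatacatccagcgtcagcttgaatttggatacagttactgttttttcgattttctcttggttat
GAP1: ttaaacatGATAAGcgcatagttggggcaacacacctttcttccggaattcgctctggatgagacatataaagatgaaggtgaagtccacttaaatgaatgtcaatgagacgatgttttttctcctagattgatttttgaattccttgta
MEP2: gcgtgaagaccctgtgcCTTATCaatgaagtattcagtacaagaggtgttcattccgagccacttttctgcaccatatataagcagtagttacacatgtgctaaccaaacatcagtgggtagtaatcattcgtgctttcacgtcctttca
Each stretch holds 1 match. No motif's letters are contained in another. Over the 300 bases from 250 before to 50 after the coding start, on both strands, GATAAG was found in 17 of the 38 genes of the nitrogen lists described here (44.7%), against 14.7% of the 5832 promoters examined. The 17 genes with the letters had a median log2 fold change of 2.82 and the 21 without them 2.40, and 15 of the 17 and 18 of the 21 rose. A match is a description of the sequence and not a binding site.

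All 9 genes for the use of allantoin and urea rose, with a median log2 fold change of 4.05 against 0.30 over all features. The urea permease gene *DUR3* had 374, 378 and 415 FPKM with rapamycin, against 8.39, 9.82 and 8.75 FPKM without it (5.29 ± 0.10). The allantoate permease gene *DAL5* had 862, 748 and 854 FPKM with rapamycin, against 19.9, 20.1 and 21.9 FPKM without it (5.25 ± 0.11). The enzymes followed in the same direction, with log2 fold changes of 3.87 for allantoinase *DAL1*, 4.05 for allantoicase *DAL2*, 4.96 for ureidoglycolate lyase *DAL3* and 3.00 for urea amidolyase *DUR1,2*. The smallest rise of the list was that of *DCG1*, at 1.92.

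Of the 9 GATA factors and nitrogen regulators, 7 rose and none fell. The activator genes differed in size: *GLN3* had 60.2, 85.8 and 71.5 FPKM with rapamycin, against 15.2, 22.0 and 23.1 FPKM without it (1.81 ± 0.20). *GAT1* had 75.7, 105 and 107 FPKM with rapamycin, against 22.1, 39.8 and 51.2 FPKM without it (1.38 ± 0.30), and its call was lost under 4 of the 5 other scalings and when library 2, 4, 6 or 3 was left out (adjusted *p* = 0.0116 to 0.0236). The repressor gene *GZF3* rose by 1.25, and *URE2*, whose product holds Gln3 in the cytoplasm, rose by 0.61 as deposited but was not called under all 6 scalings. *DAL81*, a co-activator of the allantoin genes, was not called, with 27.6, 41.4 and 34.4 FPKM with rapamycin and 18.2, 31.1 and 32.8 FPKM without it.

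All 6 genes for proline and GABA use rose, with a median of 2.79. *PUT1*, proline oxidase, had 124, 140 and 153 FPKM with rapamycin, against 6.92, 5.68 and 7.68 FPKM without it (4.18 ± 0.14), and *PUT2*, the next enzyme of the pathway, rose by 1.17. All 5 genes of the list for glutamate and glutamine metabolism also rose, with a median of 2.08. *GLN1*, glutamine synthetase, stood at 3826, 3877 and 4111 FPKM with rapamycin, against 979, 1034 and 1179 FPKM without it (1.89 ± 0.14). The glutamate dehydrogenase genes *GDH3* and *GDH1* rose by 3.19 and 2.22. *GDH2*, a member of the list whose product releases ammonium from glutamate, rose by 2.08. Thus both the genes that build glutamate and the gene that breaks it down were higher.

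The permease genes went both ways. Of the 9 ammonium, general and basic amino acid permeases 6 rose, among them the ammonium permease genes *MEP1* (1.83) and *MEP3* (1.12) and the arginine permease gene *CAN1* (2.40), and *ATO3*, an outward ammonium transporter gene, fell by 1.5. Of the 14 permeases and sensors linked to SPS, the sensor of outside amino acids at the plasma membrane, 6 rose and 5 fell, with a median of 0.24 as deposited and -0.04 after median-ratio scaling. *AGP1*, a broad-range permease, had 1103, 1016 and 1102 FPKM with rapamycin, against 52.2, 49.8 and 66.7 FPKM without it (4.24 ± 0.14). *MUP1*, the high-affinity methionine permease, had 28.8, 28.1 and 17.7 FPKM with rapamycin, against 166, 204 and 212 FPKM without it (-2.94 ± 0.20). The dicarboxylic amino acid permease gene *DIP5* and the peptide transporter gene *PTR2* rose by 2.47 and 2.0. *TAT1*, *GNP1* and *BAP2*, further amino acid permease genes, were at -2.72, -1.88 and -1.19 and fell. *TAT2*, the tryptophan permease, was not called, with 70.3, 82.4 and 66.5 FPKM with rapamycin and 85.6, 104 and 109 FPKM without it. It was called lower under 4 of the 5 other scalings.

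Of 62 genes for amino acid biosynthesis 41 rose and 6 fell, with a median of 1.63. *ARG1*, argininosuccinate synthetase of the arginine branch, had 695, 799 and 719 FPKM with rapamycin, against 23.5, 25.1 and 29.0 FPKM without it (4.78 ± 0.12). *HIS4* of histidine synthesis rose by 3.39 and *ASN1*, an asparagine synthetase, by 2.96. Of the 6 falls 4 were in the leucine and branched-chain branch (*LEU1*, *LEU9*, *BAT1* and *ILV5*), the others being *PRO1* and *HIS6*, and that of *ILV5* was not called under all 6 scalings. Other genes of the same branch rose, *BAT2* by 2.57, *LEU4* by 2.30 and *ILV6* by 1.64, with *ILV1* (0.70) and *ILV2* (0.66) called as deposited but not under all 6 scalings. *LEU1*, isopropylmalate isomerase, had 110, 115 and 120 FPKM with rapamycin, against 371, 376 and 428 FPKM without it (-1.76 ± 0.11). *GCN4*, the activator of most of these genes, is controlled largely through its translation. Its mRNA was not called as deposited, with 2239, 2182 and 1930 FPKM with rapamycin and 1735, 1460 and 1315 FPKM without it (0.50 ± 0.16, adjusted *p* = 0.027). It was called higher when each library was scaled to the same sum and under quantile normalization. The letters TGACTC, the core that Gcn4 binds, stood in 35 of these 62 promoters (56.5%), against 8.11% of all. With the letters 24 of 35 rose and 3 fell, and without them 17 of 27 rose and 3 fell.

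Genes of the retrograde pathway and the early TCA cycle, which supply 2-oxoglutarate for glutamate, rose in 10 of 14 cases and fell in none, with a median of 1.38. *CIT2*, peroxisomal citrate synthase, had 1619, 1631 and 1750 FPKM with rapamycin, against 86.4, 93.5 and 201 FPKM without it (3.81 ± 0.31). *DLD3*, which encodes a lactate dehydrogenase and is a retrograde target, had 1867, 1921 and 1904 FPKM with rapamycin, against 250, 289 and 360 FPKM without it (2.67 ± 0.16). Of the regulators, *RTG3* rose by 1.29 while *RTG1* was at 48.3, 80 and 74.7 FPKM with rapamycin and 41.1, 87.0 and 76.4 FPKM without it, and was not called. Of 41 genes of the respiratory chain and ATP synthase 22 rose and 1 fell, with a median of 0.69, and after median-ratio scaling 17 rose. *NDE2*, an external NADH dehydrogenase, led with 2.80. *COX4* was at 342, 286 and 297 FPKM with rapamycin and 231, 206 and 223 FPKM without it, a call (0.48) that was lost when any library was left out (adjusted *p* = 0.0173 to 0.0374). The call of *COX4* was also lost after median-ratio scaling, upper-quartile scaling, scaling by the sum outside ribosomal proteins and quantile normalization. In the glyoxylate cycle and gluconeogenesis list 7 of 15 rose, led by malate synthase *MLS1* (3.53), while *ICL1*, isocitrate lyase, was not called (0.31). *MDH2*, a malate dehydrogenase gene, was called at -0.79, a call lost without library 2, 4, 6, 3 or 5 (adjusted *p* = 0.0138 to 0.0243). That call was also lost when each library was scaled to the same sum.

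Every gene of the stress lists that was called was higher. Of the 24 in the list of small stress-induced genes 19 rose and none fell, with a median of 2.03. *HSP12*, a small membrane-protecting protein, had 2972, 1996 and 2385 FPKM with rapamycin, against 250, 384 and 454 FPKM without it (2.78 ± 0.26). *FMP16*, a mitochondrial protein of unknown function and the largest rise of the list, had 1125, 747 and 1008 FPKM with rapamycin, against 46.5, 36.9 and 62.8 FPKM without it (4.28 ± 0.23), although its exon is shorter than 300 nt, a length at which few fragment positions support an FPKM. Of the regulators, *MSN4* had 122, 162 and 164 FPKM with rapamycin, against 26.7, 40.1 and 44.4 FPKM without it (2.0 ± 0.21). *MSN2*, its partner, was not called, with 50.5, 70.0 and 55.0 FPKM with rapamycin and 36.3, 62.7 and 64 FPKM without it. Both *HSP26*, a small heat shock protein (2.44), and *CTT1*, cytosolic catalase (2.16), rose and kept their call under every alternative tried.

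Msn2 and Msn4 bind AGGGG, and the promoters of *FMP16*, *DDR2* and *HSP12*, which had the largest rises of the stress lists among genes with this match, are shown to set their matches side by side. They cover the same stretch as above, at chrIV:588480-588629 and chrXV:231856-232005 on the minus strand and chrVI:107006-107155 on the plus strand, with AGGGG or its reverse complement in capitals.
FMP16: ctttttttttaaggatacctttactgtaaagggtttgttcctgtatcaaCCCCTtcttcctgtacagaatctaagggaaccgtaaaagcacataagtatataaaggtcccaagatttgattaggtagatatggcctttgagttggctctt
DDR2: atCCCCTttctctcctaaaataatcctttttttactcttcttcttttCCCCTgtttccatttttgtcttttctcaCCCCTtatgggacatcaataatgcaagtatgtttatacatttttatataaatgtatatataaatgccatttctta
HSP12: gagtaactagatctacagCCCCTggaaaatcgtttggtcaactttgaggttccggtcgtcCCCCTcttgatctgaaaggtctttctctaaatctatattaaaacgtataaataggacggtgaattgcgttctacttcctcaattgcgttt
The stretch of *FMP16* holds 1 match, that of *HSP12* holds 2 and that of *DDR2* holds 3. AGGGG was found in 18 of 44 promoters of the stress, trehalose and glycogen lists (40.9%), against 21.8% of all promoters. Among those with the letters 17 of 18 rose with a median of 1.90, and among those without them 16 of 26 rose with a median of 1.20. *DDR2*, a stress-induced gene of unknown function, had 3901, 3418 and 3798 FPKM with rapamycin, against 269, 389 and 537 FPKM without it (3.27 ± 0.25), and its exon is also shorter than 300 nt.

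Genes for carbohydrate stores and for defence against oxidants were also higher. Of 9 trehalose genes 7 rose and of 11 glycogen genes 7 rose, with none falling in either list and medians of 1.01 and 1.26. The trehalase gene *NTH1* rose by 2.29 and *GDB1*, the glycogen debranching enzyme, by 2.22. *GPH1*, glycogen phosphorylase, had 117, 84.9 and 91.5 FPKM with rapamycin, against 27.0, 28.3 and 33.2 FPKM without it (1.69 ± 0.15). *TSL1*, a regulatory subunit of trehalose synthase, was at 148, 126 and 169 FPKM with rapamycin and 49.4, 57.7 and 91.6 FPKM without it, a call (1.18) lost under 4 of the 5 other scalings and without library 2, 6, 1 or 3 (adjusted *p* = 0.0123 to 0.0197). Of 21 peroxiredoxins, catalases and superoxide dismutases 13 rose and none fell. *TSA2*, a stress-induced peroxiredoxin, had 611, 390 and 473 FPKM with rapamycin, against 28.5, 18.3 and 23.3 FPKM without it (4.33 ± 0.21). Of 16 regulators of the general stress response 4 rose and none fell, with a median of 0.31, a share of rises below the 31.6% of all features and a median close to theirs.

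Autophagy, by which cells deliver their own cytoplasm to the vacuole, showed a broad rise. Of 37 genes 32 rose and none fell, with a median of 1.35, and 24 of them were higher under all 6 scalings. After median-ratio scaling 25 were higher and 2 lower. *ATG8*, which encodes the ubiquitin-like protein joined to the growing autophagosome membrane, had 618, 483 and 583 FPKM with rapamycin, against 73.9, 60.5 and 100 FPKM without it (2.85 ± 0.20). The kinase gene *ATG1* had 30.8, 44.1 and 34.0 FPKM with rapamycin, against 12.1, 13.4 and 14.0 FPKM without it (1.39 ± 0.16). *ICY2*, which encodes Atg41, had the largest rise of the list at 4.18, and *ATG14*, a subunit of the autophagy lipid kinase, rose by 1.58. The 5 that were not called were *ATG10*, *ATG27* and *ATG5*, at -0.59, -0.36 and -0.30, and *ATG13* and *YIL156W-B*, both at 0.78. In the vacuole 9 of 10 proteases and inhibitors rose, with a median of 2.18. *PRB1* and *PEP4* encode vacuolar proteases. *PRB1* had 369, 413 and 442 FPKM with rapamycin, against 66.2, 84.4 and 111 FPKM without it (2.24 ± 0.19). *PEP4* had 960, 885 and 924 FPKM with rapamycin, against 299, 244 and 327 FPKM without it (1.68 ± 0.14). *CPS1*, a vacuolar carboxypeptidase, led the list with 3.93. In the proteasome list 3 of 36 genes rose and none fell as deposited, while after median-ratio scaling 1 was higher and 5 were lower. The median was 0.06 as deposited and -0.23 after that scaling. *RPN4*, the activator gene of the proteasome, was called at 0.63 as deposited but not after any other scaling.

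**Figure D3:**
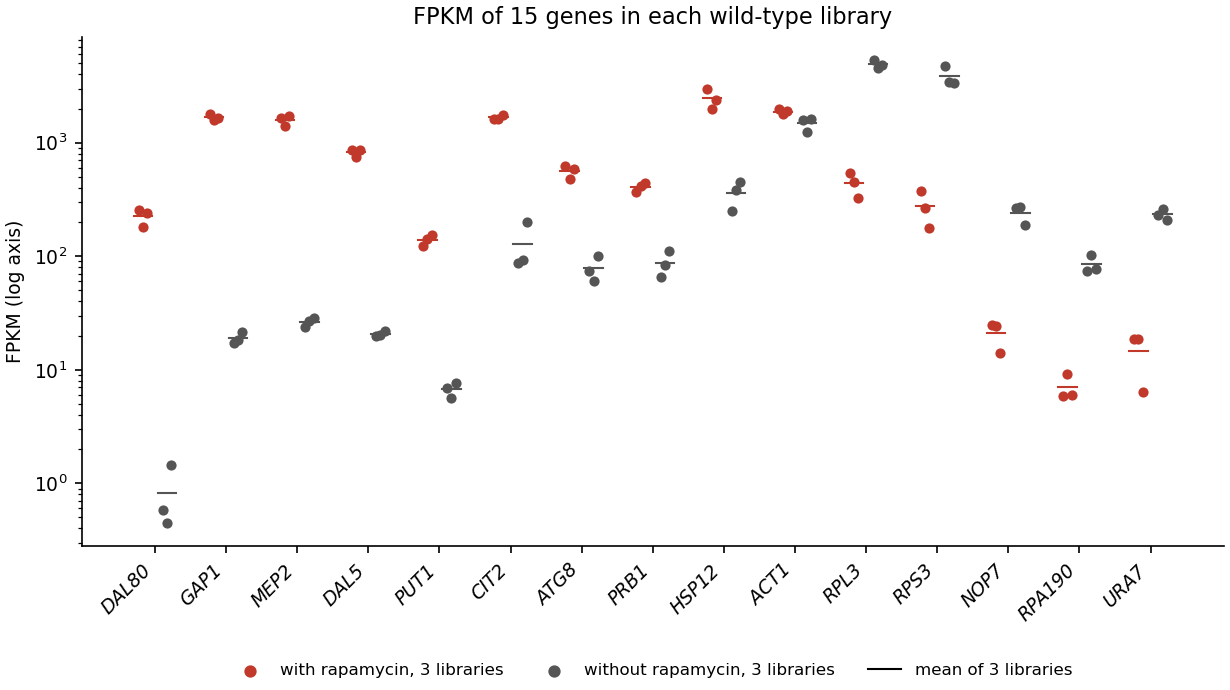
FPKM on a log axis of 15 genes in each library, WT with rapamycin in red and WT without in gray, with a bar at the mean of 3 libraries. In *DAL80* through *HSP12* the libraries with rapamycin lie above those without it, in *RPL3* through *URA7* they lie below, and *ACT1*, which encodes actin, at 1776 to 1963 FPKM with rapamycin and 1244 to 1609 FPKM without it, was not called.

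Genes for the proteins of cytosolic ribosomes fell together. Of the 138 genes for these proteins 136 met the limit on mean FPKM, and 135 of them fell. For the large subunit 79 of 80 fell with a median of -3.12, and for the small subunit all 56 fell with a median of -3.26. *RPL3* had 539, 450 and 327 FPKM with rapamycin, against 5359, 4510 and 4863 FPKM without it (-3.51 ± 0.20). *RPS3* had 379, 267 and 177 FPKM with rapamycin, against 4748, 3409 and 3348 FPKM without it (-3.85 ± 0.29). In both genes every library with rapamycin was below every library without it. *RPL28* and *RPP0* fell by 3.10 and 3.14.

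Within the ribosomal proteins the size of the fall varied from gene to gene, also between near-identical copies. *RPL9A* (chrVII:227754-228329 of R64) fell most, with 108, 73.2 and 45.9 FPKM with rapamycin, against 3423, 3024 and 3079 FPKM without it (-5.45 ± 0.29), while its copy *RPL9B* fell by 2.12. *RPS26B* fell by 4.96 and its copy *RPS26A* by 2.91. The exception was *RPL15B*, which had 236, 193 and 200 FPKM with rapamycin, against 132, 125 and 146 FPKM without it (0.63 ± 0.12), while *RPL15A* fell by 3.61. The rise of *RPL15B* was lost under 4 of the 5 other scalings and without library 6, 1 or 3 (adjusted *p* = 0.011 to 0.0164). How reads shared by such copies were assigned is not given in the sources used here, so the values of the separate copies are uncertain. *RPL9B*, *RPS26A* and *RPL15A* were named after their values were seen. *RPS22A*, *RPS16B*, *RPL31B* and *RPS31* were among the 10 largest falls, at -4.40, -4.31, -4.31 and -4.22, and *ASC1*, a protein bound to the small subunit, fell by 4.45, with 151, 109 and 111 FPKM with rapamycin and 2931, 2445 and 2718 FPKM without it. *ASC1* carries SNR24 in its intron, so reads of host and snoRNA cannot be told apart there.

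Ribosomal protein genes gave 4.68%, 3.55% and 3.42% of the summed FPKM with rapamycin, against 31.8%, 26.6% and 26.6% without it. The difference of the means was -24.4 percentage points (exact permutation test over the 6 libraries, two-sided *p* = 0.1, the smallest that 3 against 3 allow). Without features shorter than 300 nt the means were 4.25% with rapamycin and 28.6% without it. The a-pheromone genes *MFA1* and *MFA2* together gave 24.8%, 34.2% and 26.7% of the sum with rapamycin and 9.85%, 13.9% and 12.5% without it. *MFA1* alone was at 497429, 629233 and 451682 FPKM with rapamycin and 202270, 261288 and 229939 FPKM without it, and the difference was not called (1.18 ± 0.38, adjusted *p* = 0.031). Its exon of 111 nt is close to the read length of 100 nt, where the length correction weighs heavily. Without *MFA1* and *MFA2* the ribosomal protein share averaged 5.43% with rapamycin and 32.2% without it.

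**Figure D4:**
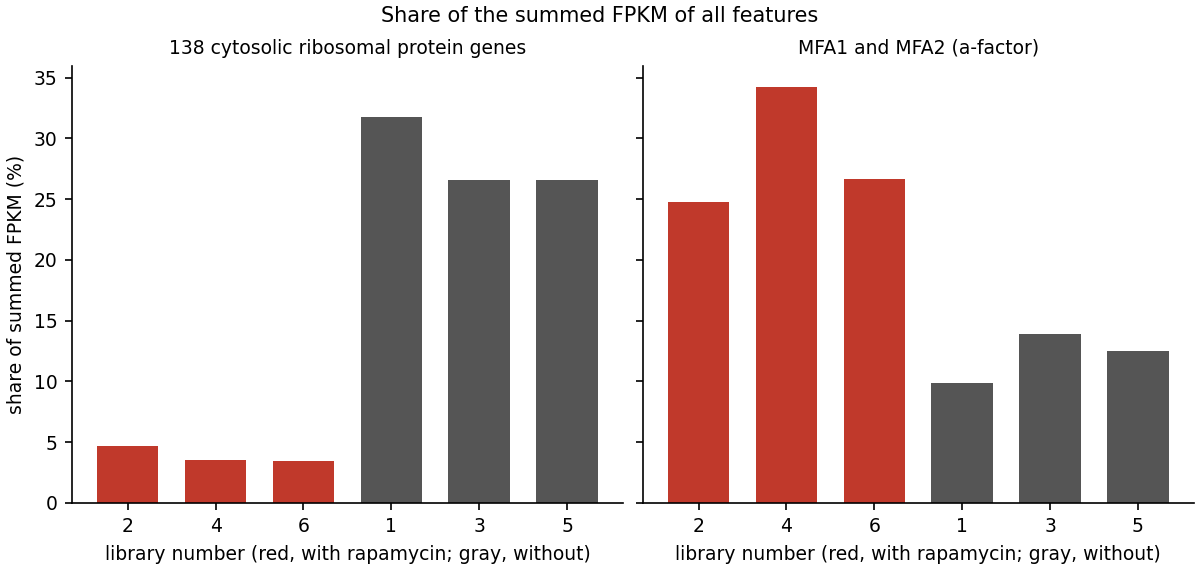
Share of the summed FPKM of all features (vertical axis, percent) held by 138 cytosolic ribosomal protein genes (left) and by the a-pheromone genes *MFA1* and *MFA2* (right) in each library, WT with rapamycin in red and WT without in gray. The ribosomal protein share is 3.42% to 4.68% with rapamycin and 26.6% to 31.8% without it.

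Genes for the assembly of ribosomes fell as well. In the list of the small subunit processome, which processes the precursor of 18S RNA, 68 of 71 genes fell and none rose, with a median of -2.08, and in the list of large subunit assembly and export 69 of 72 fell and none rose, with a median of -2.10. *NOP7*, a large subunit assembly factor, had 24.6, 24.1 and 14.0 FPKM with rapamycin, against 265, 272 and 187 FPKM without it (-3.49 ± 0.25). *DHR2*, an RNA helicase of the small subunit processome, had 3.38, 2.46 and 2.54 FPKM with rapamycin, against 41.8, 50.5 and 29.8 FPKM without it (-3.44 ± 0.22). With rapamycin all 3 libraries were below all 3 without it for each of the 143 genes, and 137 of them passed the test. Among all features tested the groups did not overlap, in either direction, for 68.3%. The fibrillarin gene *NOP1* (-2.42), the methyltransferase gene *NOP2* (-2.66) and the processome genes *PWP2* (-3.25) and *UTP10* (-1.93) fell and kept their calls under all 22 alternatives. *NSR1*, the yeast nucleolin, missed the threshold, with 222, 238 and 97.4 FPKM with rapamycin and 493, 582 and 360 FPKM without it (-1.43 ± 0.36, adjusted *p* = 0.011), and passed it under 11 of the 22 alternatives.

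The promoters of *NOP7* and *RRP36* are shown because most genes of the assembly lists hold GATGAG, the core that the repressors Dot6 and Tod6 bind, and *NOP7* holds 3 overlapping copies. The stretches are at chrVII:695167-695316 on the plus strand and chrXV:851940-852089 on the minus strand, with GATGAG in capitals.
NOP7: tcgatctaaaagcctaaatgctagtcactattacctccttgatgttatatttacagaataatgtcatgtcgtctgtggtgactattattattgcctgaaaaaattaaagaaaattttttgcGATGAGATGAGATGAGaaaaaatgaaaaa
RRP36: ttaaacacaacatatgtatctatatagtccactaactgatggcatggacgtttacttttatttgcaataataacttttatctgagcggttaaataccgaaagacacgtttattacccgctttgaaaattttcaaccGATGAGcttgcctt
*RRP36*, a processome factor that fell by 3.28, holds 1 match. *DHR2*, with a larger fall than *RRP36*, has 3 matches in the 300 bases but none in this stretch, and is not shown for that reason. GATGAG was found in 129 of the 143 promoters of the assembly lists (90.2%), against 20.0% of all promoters, 41.6% of those of genes that fell and 14.3% of those of genes that rose. AAAATTT, the core bound by Stb3, stood in 137 of the 143 (95.8%), against 23.6% of all. By comparison, GATGAG stood in 15 of 136 ribosomal protein promoters (11.0%) and AAAATTT in 42 (30.9%), below the share of all promoters for GATGAG and above it for the Stb3 core. The short form of the Rap1 site ACACCCA was found in 6 of those 136 promoters (4.41%) and in 2.28% of all, and CACGTG in 1 of the 136 (0.735%) and in 2.93% of all. Letters absent from this window say nothing of the factors. Assembly genes with GATGAG had a median of -2.18 and the 14 without it a median of -1.61.

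Genes for the polymerases that make ribosomal and transfer RNA fell in part. Of 18 genes for RNA polymerase I and its factors 10 fell and none rose. The largest subunit, *RPA190*, had 5.86, 9.21 and 6.03 FPKM with rapamycin, against 73.7, 102 and 77.8 FPKM without it (-3.42 ± 0.20), *RPA135* fell by 3.40, and *RRN3*, the initiation factor, fell by 1.70. Of 19 genes for RNA polymerase III and its factors 9 fell and 4 rose. The falls were all in subunits of the enzyme, led by *RPC31* (-2.44), with the largest subunit gene *RPO31* at -1.28. The rises were in the initiation factor genes *TFC3* (0.72), *TFC4* (0.47) and *BRF1* (0.62) and in the repressor *MAF1* (0.56), none of which was called under all 6 scalings.

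Translation genes were lower as well. Of 44 translation factors 37 fell and 1 rose, with a median of -1.29. *YEF3*, the fungal elongation factor that releases spent tRNA, had 471, 499 and 388 FPKM with rapamycin, against 1854, 2043 and 1876 FPKM without it (-2.09 ± 0.14). Its paralog *HEF3* rose, with 30.9, 31.9 and 27.9 FPKM with rapamycin and 5.06, 7.64 and 6.60 FPKM without it (2.08 ± 0.17). *STM1*, whose product binds ribosomes, fell by 3.62. *TEF1*, elongation factor 1 alpha, whose reads are shared with *TEF2*, was called at -1.0, a call lost without library 4, 6 or 5 (adjusted *p* = 0.0104 to 0.0121), and its direction turned under quantile normalization (0.02, adjusted *p* = 0.903). Of 24 tRNA modification genes 19 fell and none rose, led by *GCD10* (-2.60), and of 22 cytosolic aminoacyl-tRNA synthetases 12 fell, led by *GLN4* (-1.5). *KRS1*, the lysine enzyme, was called at 0.63, a call lost under 3 of the 5 other scalings and without library 4, 6, 3 or 5 (adjusted *p* = 0.0117 to 0.0148). Of 68 mitochondrial ribosomal protein genes 7 rose and 1 fell, with a median of 0.13 as deposited and -0.16 after median-ratio scaling. *MRPL3* was not called (0.16), *RSM10* rose by 1.05, and *RSM26* was called at -1.04, a call lost without library 4, 1 or 3 (adjusted *p* = 0.0125 to 0.0134).

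**Figure D5:**
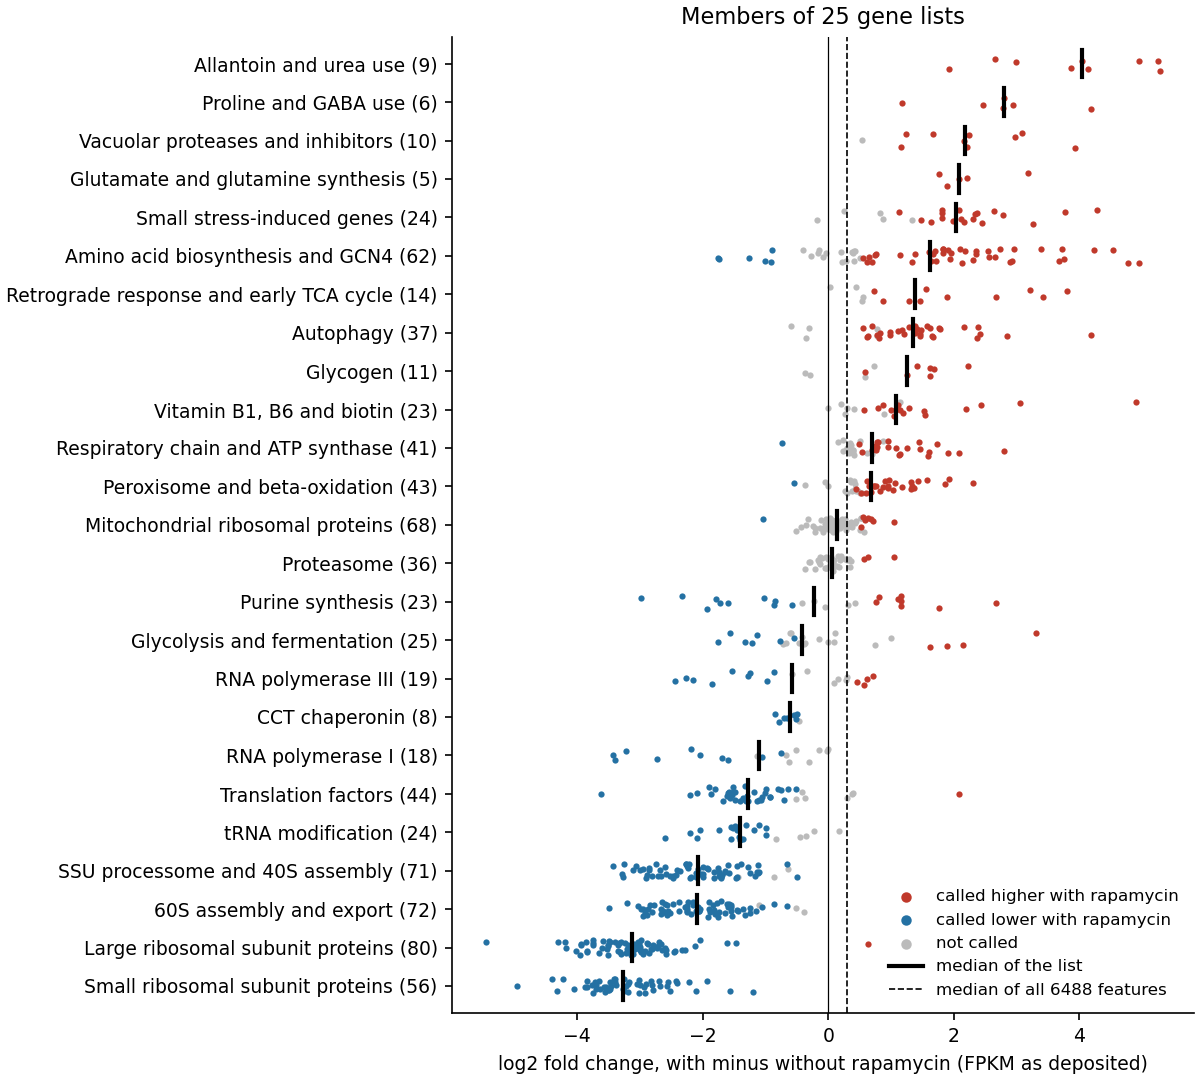
Log2 fold change, WT with rapamycin minus WT without (horizontal axis), of each member of 25 gene lists, with the number of members tested in brackets. Red points rose, blue points fell, gray points were not called, and a black bar marks the median of the list. The medians run from 4.05 for allantoin and urea use to -3.26 for small ribosomal subunit proteins, and the dashed line is the median of all features, 0.30.

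Among the regulators of ribosome genes, 1 of 12 rose and 2 fell (16.7%, against 14.0% of all features). After median-ratio scaling 1 was higher and 6 were lower, and the median moved from -0.42 to -0.71. *CRF1*, a co-repressor of ribosomal protein genes, had 28.5, 39.1 and 26.3 FPKM with rapamycin, against 11.2, 13.8 and 11.1 FPKM without it (1.30 ± 0.18). *TOD6* had 16.8, 26.5 and 10.8 FPKM with rapamycin, against 64.8, 97.2 and 55.2 FPKM without it (-1.99 ± 0.33). Its paralog *DOT6* had 90.4, 121 and 104 FPKM with rapamycin and 78.0, 120 and 126 FPKM without it, and was not called. The groups of *DOT6* overlapped, as did those of *SFP1* (0.15), and neither *IFH1* (-0.58) nor *STB3* (0.58) was called. *RAP1*, the other gene of the list that fell, was at -1.13.

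Of 24 genes of TORC1 and its inputs 10 rose and none fell, with a median of 0.43, and 5 of the rises held under all 6 scalings. After median-ratio scaling 6 were higher and 1 lower. *NPR1*, a kinase that acts on nitrogen permeases, had 89.9, 111 and 97.0 FPKM with rapamycin, against 25.9, 29.8 and 29.5 FPKM without it (1.77 ± 0.12). *TOR1* had 19.7, 26.6 and 23.7 FPKM with rapamycin, against 10.1, 14.7 and 12.3 FPKM without it (0.87 ± 0.18), and its call was lost under 4 of the 5 other scalings and without library 4, 6, 1 or 5 (adjusted *p* = 0.0119 to 0.0187). *FPR1*, the receptor of rapamycin, was not called, with 2844, 2052 and 2191 FPKM with rapamycin and 2214, 1434 and 1789 FPKM without it. Of 18 PP2A-type phosphatase genes 6 rose (33.3%) and 1 fell, with a median of 0.25 as deposited and -0.04 after median-ratio scaling, so the share of rises was close to the 31.6% of all features. *RRD2* had 57.0, 56.5 and 51.0 FPKM with rapamycin, against 28.5, 29.8 and 25.6 FPKM without it (0.95 ± 0.11). *RRD1*, its paralog and the gene deleted in the other strain of the series, was not called, with 81.9, 67.2 and 85.3 FPKM with rapamycin and 47.7, 47.5 and 72.3 FPKM without it (0.50 ± 0.19). *TAP42*, whose product binds these phosphatases, was called at 0.55, a call lost under 4 of the 5 other scalings and without library 2, 4, 3 or 5 (adjusted *p* = 0.0137 to 0.015). *TIP41*, a regulator of them, was not called (0.28). *SAP185*, a partner of the phosphatase Sit4, was called at -1.04, a call lost without library 2, 6 or 3 (adjusted *p* = 0.0103 to 0.0141).

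Genes for nucleotide synthesis divided. *RKI1*, ribose-5-phosphate isomerase, which feeds nucleotide synthesis, had 9.95, 11.7 and 3.63 FPKM with rapamycin, against 275, 240 and 200 FPKM without it (-4.78 ± 0.37). Of 8 pyrimidine genes 4 fell and 2 rose. *URA1*, dihydroorotate dehydrogenase, had 36.8, 45.4 and 30.8 FPKM with rapamycin, against 838, 670 and 702 FPKM without it (-4.27 ± 0.17), and *URA7*, a CTP synthase, had 18.8, 18.6 and 6.35 FPKM with rapamycin, against 233, 259 and 209 FPKM without it (-4.04 ± 0.38). Treated library 6 was the lowest of the 3 in *RKI1*, *URA1* and *URA7*. Of 23 purine genes 10 fell (43.5%) and 8 rose (34.8%), against 14.0% and 31.6% of all features. The falls were in the branch to GMP, with *IMD4* (-2.98) and *GUA1* (-2.33), in salvage (*APT1* and *HPT1*) and in PRPP synthesis (PRS genes), and the rises were in the shared and adenine branches, such as *ADE17* (2.68), *ADE4* (1.17) and *ADE2* (1.15).

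Hexose transporter and glycolytic genes went both ways. Of 20 hexose transporters and sensors 5 rose and 5 fell (25% each, against 31.6% and 14.0% of all features). *HXT2* had 49.4, 61.9 and 26.6 FPKM with rapamycin, against 333, 445 and 293 FPKM without it (-2.99 ± 0.31), *HXT7*, whose reads are shared with *HXT6*, fell by 2.16 and *HXT1* by 1.35, while *HXT15* rose by 1.46 at no more than 14.4 FPKM with rapamycin. Of 25 glycolytic and fermentation genes 7 fell (28%) and 4 rose (16%), against 14.0% and 31.6% of all features. *TDH2* fell by 1.76 and *ADH1* by 1.33, both calls lost under quantile normalization, and that of *ADH1* also without library 4, 6, 1 or 5 (adjusted *p* = 0.0234 to 0.0315). *ADH2* fell by 1.14 and *ADH5* rose by 3.31. *TDH3*, a glyceraldehyde-3-phosphate dehydrogenase gene, was not called, with 17279, 13921 and 15413 FPKM with rapamycin and 20400, 16915 and 23562 FPKM without it. *PGK1* (-0.68) was not called as deposited. It was called lower after median-ratio scaling, upper-quartile scaling and scaling by the sum outside ribosomal proteins.

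Of 13 genes of the Hsp70 class 4 rose (30.8%) and 4 fell (30.8%), against 31.6% and 14.0% of all features. The falls were the chaperones that act on nascent chains at the ribosome: *SSB1*, which had 91.6, 100 and 66.4 FPKM with rapamycin, against 629, 648 and 695 FPKM without it (-2.94 ± 0.17), its near-identical copy *SSB2* (-2.55), *ZUO1* (-1.12) and *SSZ1* (-0.96). The rises included the exchange factor gene *SSE2* (2.51) and the stress-induced *SSA4* (1.76). Of 18 genes for Hsp90, the disaggregase and co-chaperones 5 rose and none fell. The rises were led by the mitochondrial disaggregase *HSP78* (2.62), with *HSP104* at 1.37, and their share (27.8%) was below that of all features. After median-ratio scaling 3 were higher and 2 lower. Of the 8 subunit genes of CCT, which folds actin and tubulin, 7 fell, led by *CCT5* (-0.85). None of the 7 reached 2-fold, and 4 were called under all 6 scalings.

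Of 14 cyclins and inhibitors 4 fell and 1 rose, and after median-ratio scaling 6 were lower and 0 higher. *CLB6*, an S-phase cyclin, had 5.70, 4.74 and 3.82 FPKM with rapamycin, against 14.7, 14.7 and 16.7 FPKM without it (-1.52 ± 0.18). The G1 cyclins *CLN2* and *CLN3* and the inhibitor *SIC1* were not called, with log2 fold changes of -0.20, -0.08 and 0.25. *FAR1*, an inhibitor gene, was called at 0.49, a call lost when any library was left out (adjusted *p* = 0.015 to 0.0321). The call of *FAR1* was also lost after median-ratio scaling, upper-quartile scaling, scaling by the sum outside ribosomal proteins and quantile normalization. Of 10 histone genes 2 fell (20%, against 14.0% of all features), neither of them under all 6 scalings. *HTA1* was not called as deposited (-0.82, adjusted *p* = 0.029). *HTA1* was called lower after upper-quartile scaling and when scaled by the sum outside ribosomal proteins. The larger of the 2 falls, *HHF1* (-1.07), lost its call under quantile normalization and without library 4, 6, 1, 3 or 5 (adjusted *p* = 0.0189 to 0.0258).

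Several of the largest changes were in genes outside the groups above. *TMT1*, a methyltransferase of trans-aconitate, had 1525, 1404 and 1511 FPKM with rapamycin, against 38.2, 32.9 and 38.4 FPKM without it (5.31 ± 0.11). *YGL117W*, a gene of unknown function, had 909, 960 and 988 FPKM with rapamycin, against 28.7, 27.2 and 29.4 FPKM without it (5.02 ± 0.10), and *RTC2*, a vacuolar membrane protein, rose by 5.01. *PIR3*, a cell wall protein, had 316, 522 and 488 FPKM with rapamycin, against 7.55, 10.2 and 13.1 FPKM without it (5.29 ± 0.25). In its list of 25 cell wall genes 9 rose (36%), against 31.6% of all features, and 1, *GAS3*, fell. The small nucleolar RNA *SNR87* had values of 0 in each library with rapamycin and of 567, 871 and 1876 FPKM without it, and fell (adjusted *p* = 4.43e-06). Another short RNA, *SNR18*, varied between replicates and was not called. It was listed at 0 in treated library 4 and at 21998 and 5708 FPKM in treated libraries 2 and 6, against 24475, 46979 and 22760 FPKM without rapamycin. *SNR18*, and other genes here that are neither anchors nor leaders of a list or of all features, were named after their values were seen.

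By position in R64, within 30 kb of an end 156 of 359 features rose (43.5%) and 21 fell (5.85%), with a median of 0.71, against 1800 rises (32.8%) and 818 falls (14.9%) among the 5489 features farther in, with a median of 0.29. After median-ratio scaling 126 of the 359 were called higher (35.1%), against 1205 of the 5489 farther in (22.0%). Intron-containing genes fell in 108 of 258 cases, and 89 of those falls were ribosomal protein genes. Of the 169 other genes with introns 53 rose and 19 fell, with a median of 0.31, against 0.31 for the 5576 protein-coding genes without introns. By expression level, with the features in 5 classes of equal size, falls made up 23.8% of the highest class and 5.70% of the lowest, while rises made up 26.3% of the highest and 27.3% of the lowest. In the classes between, falls made up 12.6% to 14.6% and rises 31.7% to 37.5%. Ribosomal protein genes were not set apart in these classes.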

How the data were processed

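The authors prepared libraries from about 250 ng of total RNA with the TruSeq RNA Sample Prep Kit and sequenced them on an Illumina HiSeq as single reads of 100 nt. According to the submitters' notes, TopHat, Cufflinks and Cuffdiff were used. The deposited values are FPKM, 1 column per library, with no further scaling between libraries stated, and versions, genome build and annotation are not given in the sources used here. The kit is not stated to mark strand, so reads of overlapping or antisense genes cannot be told apart.

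Groups were taken from the sample labels. Features with a mean of at least 1 FPKM over the 6 wild-type libraries were kept. The 2 conditions were compared on log2(FPKM + 1) in limma 3.58.1 (R 4.3.3), with 2 group means, 4 residual degrees of freedom and empirical Bayes moderation with a mean-variance trend, and *p*-values were adjusted by Benjamini and Hochberg over all 6488 features. A fold change on this scale understates that of weakly expressed genes. A feature was called at an adjusted *p* under 0.01. CuffDiff, which the study used, needs aligned reads and was not run. The ribosomal protein share was compared with an exact permutation test in scipy 1.17.1.

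The values were also scaled by median ratio, upper quartile, total sum, sum outside ribosomal proteins and quantile normalization. Other alternatives changed the pseudocount (0.1 or 5), the filter, the threshold, the moderation or the libraries in the fit, or applied voom to implied reads. Depth was derived from the steps of 1 read in the FPKM of weakly expressed genes and rests on an assumed mean fragment of 200 nt. For each library the depth taken, among those tried from 6000000 to 16000000 reads, was the one that put most values near a whole read. This used 19 to 27 values per library with rapamycin and 25 to 36 without it. At that depth 72.0% to 77.8% of the values with rapamycin and 63.9% to 76.9% without it lay within 0.05 of a whole read. These shares were maximized by the choice and are no check of it.

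The members and the 58 gene lists were chosen with earlier results of these data known, so lists are described by counts and medians with no test. Named were the 10 largest rises and falls among called features, at least 300 nt long where R64 gives an exon length, whose groups do not overlap and whose higher group averages at least 10 FPKM, the largest called rise and fall of each list, 82 anchor genes, marker and mating-type genes, and the genes whose promoters are shown. Some genes that the rule names are not reported here. Coordinates, exon lengths and promoters are from RefSeq R64, joined by ORF name for 5849 of the 6488 features, and may differ from the annotation of the authors. Promoters were taken from 250 bases before to 50 after the coding start and searched on both strands.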

Additional observations from a re-analysis of the deposited data

How the results depend on the processing

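No paired analysis was possible because the libraries with rapamycin are numbered 2, 4 and 6 and those without it 1, 3 and 5, so that no number is shared, and the labels tie no library to a day. On the second principal component (8.78% of the variance) libraries 2, 4 and 6 stood at 22.2, -26.8 and 6.58, and libraries 1, 3 and 5 at 16.7, -15.2 and -3.49. Whether libraries of the 2 groups share a day cannot be told, and calls made within days may differ from those given. Requiring at least 2-fold besides an adjusted p under 0.01 left 1782 calls of 2960, of which 1137 were higher. Rises numbered 1356 after upper-quartile scaling and 1229 when scaled by the sum outside ribosomal proteins, against 2049 as deposited. Falls numbered 1431 after median-ratio scaling, 1493 when scaled by the sum outside ribosomal proteins and 1448 under quantile normalization, against 911 as deposited. The scaling moved the median of all features, and with it the split. Leaving out 1 library gave 2310 to 2627 calls, 1588 to 1781 of them higher and 718 to 846 lower, with fewer samples in the fit, and 2121 calls held their direction and their side of the threshold in all 6 such fits. The ribosomal protein share differed by -24.4 percentage points whether all features, those with a mean of at least 1 FPKM or those of at least 300 nt were summed. Of 138 called genes among those named, 112 kept their call under every alternative. The direction of *TEF1* turned under quantile normalization, to 0.0228 (adjusted *p* = 0.903 in limma), and the cause was not tested. With 3 libraries per group and an implied 8.44 to 11.47 M reads each, small differences and short or weakly expressed features are limited most.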

Other observations

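Vitamin and one-carbon genes that the text above has not described were mostly higher. Of 23 genes for vitamin B1, vitamin B6 and biotin 16 rose and none fell, with a median of 1.08. *SNZ1*, a vitamin B6 synthesis gene, had 1085, 1368 and 1107 FPKM with rapamycin, against 42.1, 34.4 and 39.1 FPKM without it (4.90 ± 0.14). In the glycine cleavage and one-carbon list 7 of 11 rose and 1 fell, with *GCV2* of the glycine cleavage complex at 2.91 and *MIS1*, a mitochondrial folate enzyme, at -2.61. Sulfate assimilation and methionine genes went both ways, with 8 of 25 higher, led by *STR2* (3.17), and 6 lower. The share of rises (32%) was close to the 31.6% of all features. The median was 0.22 as deposited and -0.06 after median-ratio scaling, where 7 were higher and 11 lower.

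Of 43 peroxisome and beta-oxidation genes 27 rose and 1 fell, with *PXA2*, a fatty acid transporter gene, at 2.31, and *POT1*, which encodes a thiolase, not called (0.35). In the iron list 7 of 20 rose and 2 fell, a share of rises close to the 31.6% of all features. *HMX1*, heme oxygenase, had 152, 185 and 153 FPKM with rapamycin, against 14.5, 14.5 and 19.7 FPKM without it (3.26 ± 0.15). In the phosphate list 9 of 23 fell, led by the acid phosphatase gene *PHO3* (-2.14), and 5 rose, led by *PHM8* (2.91), while *PHO84*, the phosphate permease gene, was not called (-0.44). Of 16 genes for the ubiquitin ligase Rsp5 and its arrestin adaptors 12 rose and none fell, with the polyubiquitin gene *UBI4* at 2.05. After median-ratio scaling 8 of them were higher and 1 lower. In the ergosterol list 8 of 27 rose (29.6%), which was not above the share of all features, with *ERG28* at 1.22, *ERG11* not called (0.10), and a median of 0.29 as deposited and -0.00 after median-ratio scaling. Of 14 a-cell mating genes 8 rose and none fell, with *ASG7* at 2.03. Of 3 alpha-cell genes tested, *SAG1* (1.56) and *STE3* (0.85) rose, neither of them under all 6 scalings, and the call of *SAG1* was lost without library 4 or 6 (adjusted *p* = 0.0126 to 0.0137), while *MF(ALPHA)2* was not called (0.56). In the meiosis list 7 of 13 rose, with *DMC1* at 1.79, no higher than 29.3 FPKM with rapamycin and 7.73 FPKM without it, and *SPS4* fell by 1.34. In the unfolded protein response list 3 of 11 fell, with *LHS1* at -0.63. In that of mRNA decay 1 of 14 rose (7.14%, below the 31.6% of all features), *EDC2* at 1.33.

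In 31 pairs of isozymes or paralogs, chosen after their values were seen, 9 pairs had 1 member that rose and 1 that fell, and 6 of these held under all 6 scalings. In 15 pairs 1 member was called, in 5 both were called in the same direction and in 2 neither was. For orotate phosphoribosyltransferase, *URA10* had 246, 194 and 186 FPKM with rapamycin, against 24.3, 22.3 and 21.3 FPKM without it (3.14 ± 0.13), and *URA5* had 298, 263 and 251 FPKM with rapamycin, against 555, 554 and 548 FPKM without it (-1.03 ± 0.11). For alpha-isopropylmalate synthase, *LEU4* rose by 2.30 and *LEU9* fell by 1.74. The same split was seen for the external NADH dehydrogenases *NDE2* (2.80) and *NDE1* (-0.74) and the 6-phosphogluconate dehydrogenases *GND2* (2.26) and *GND1* (-0.66). Reads shared by the members of a pair can bring their values closer together.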
